A study of Mus musculus with 6 samples.

Results

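The inhibitory checkpoint genes of CD8+ T cells were followed by RNA-Seq in fresh and stimulated mouse cells. The set held 9 genes, Pdcd1, Ctla4, Lag3, Havcr2, Tigit, Btla, Cd160, Entpd1 and Tox, matched by gene name among the 54446 genes of the files. The names describe 7 surface receptors together with an ectoenzyme, Entpd1, and a nuclear factor, Tox, so the set is called checkpoint genes here. CD8+ T cells were purified from the spleens of 8-week-old C57BL/6 mice by negative selection. Unstimulated cells were taken fresh, control cells were stimulated for 72 h without magnets on plates coated with antibodies to CD3 and CD28, and SMF-treated cells received the same stimulation on magnets giving a static magnetic field (SMF) of 0.3 T. Each group had 2 libraries. Nothing in the labels ties the libraries to separate animals or cultures, so the p values measure the spread between libraries, which may be technical. All cells carried their normal genes, with no transgene or deletion named in the labels.

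Checkpoint receptors are brakes on T cells. Most are absent or scarce on resting cells, appear after the T cell receptor and CD28 have been engaged, and then dampen signalling when they meet their ligands on other cells. PD-1 (Pdcd1) recruits the phosphatase SHP-2, CTLA-4 (Ctla4) competes with CD28 for CD80 and CD86, LAG-3 (Lag3) binds MHC class II, TIGIT competes with CD226 for the poliovirus receptor, BTLA and CD160 bind the herpesvirus entry mediator HVEM (Tnfrsf14), and TIM-3 (Havcr2) binds galectin-9 among other ligands. CD39 (Entpd1) begins the conversion of extracellular ATP to adenosine. TOX is a nuclear factor known for its role in T cell exhaustion, a state reached under lasting stimulation.

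The values are gene FPKM, mapped fragments scaled to transcript length and library size, summed over the transcripts of a gene. Covered bases are the mean reads per base times the length, so a base covered by several reads counts several times. The depth, taken as all covered bases of a library, was 64.4 Mb in the shallowest library, control replicate 1, and 259 Mb in the deepest, SMF replicate 1. Between 9.17% and 19.7% of the genes tested were listed at 0 in a library. A value of 0 is therefore given only as a listing at 0. The 6 CD8 T cell markers, Cd8a, Cd8b1 and genes of the CD3 complex, were above 0 in all libraries, but 2 of the 6 were called lower in control than in unstimulated cells, Cd8a (-1.08) and Cd8b1 (-1.31 on the log2(FPKM + 1) scale), and 2 were called higher in SMF against control cells, Cd8a (2.01) and Cd3d (1.40). Cd8a was at 92.5 and 105 FPKM in unstimulated, 35.5 and 60.0 FPKM in control and 192 and 186 FPKM in SMF-treated cells. The summed FPKM of 5 B cell markers fell from 133 and 102 in unstimulated cells to 23.3 and 8.46 in control cells and 4.85 and 2.71 in SMF-treated cells, and Ms4a1 and Pax5 were listed at 0 in both SMF-treated libraries. Of 6 myeloid markers, 5 and 6 were above 0 in the unstimulated libraries against 1 to 3 in the stimulated ones, where Csf1r alone, at 41.1 to 53.8 FPKM, made up most of the sum of 47.0 to 53.8. The 3 CD4 T cell markers summed to 10.5 and 9.55 FPKM in unstimulated and 0.890 to 3.55 in stimulated cells, and 4 NK cell markers to 18.5 and 10.5 in unstimulated and 0 to 2.29 in stimulated cells. The 5 erythroid markers summed to 0 to 5.54 FPKM and the 3 platelet markers to 0 to 10.6 FPKM. Of 8 activation and homing genes, 6 (Gzmb, Il2ra, Ifng, Mki67, Cd44 and Ccr7) were called higher and 1 (Il7r) lower in each stimulated group than in unstimulated cells. The remaining one, the activation marker Cd69, was not called, at 62.1 and 79.4 FPKM in unstimulated, 44.4 and 47.6 FPKM in control and 78.0 and 83.6 FPKM in SMF-treated cells.

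The dates in the folder names of the file headers differed between the groups. Replicate 1 of the unstimulated and control cells carried a folder of June 2017, replicate 2 of both a folder of November 2017, and both SMF libraries a folder of October 2018. In 0 of the 3 dates were SMF libraries found together with control or unstimulated ones, so a difference of SMF-treated cells from either group cannot be told apart from one between folder dates.

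The sequences before the transcription starts are shown for Pdcd1, Ctla4 and Tigit, which were higher after stimulation, and for both starts of Cd160, whose reads bear on the choice between its first exons. Each window holds the 250 bases before a RefSeq start on GRCm38.p6, written 5′ to 3′ on the gene's strand. Capitals mark GGAAA, the core that factors of the NFAT family can bind, on either strand (TTTCC when it lies on the opposite strand, with overlapping matches joined). RefSeq windows were found for 7 of the 9 genes, but not for Tox or for Lag3, which was also higher after stimulation. The window of Tigit belongs to a RefSeq start that is not among the transcript starts of the authors' files.
Pdcd1, chr1:94052554-94052803, minus strand: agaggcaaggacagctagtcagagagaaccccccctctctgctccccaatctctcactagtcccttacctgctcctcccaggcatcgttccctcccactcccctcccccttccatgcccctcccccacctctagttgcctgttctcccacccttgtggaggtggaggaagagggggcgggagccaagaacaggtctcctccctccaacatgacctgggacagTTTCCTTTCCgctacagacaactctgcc
Ctla4, chr1:60908775-60909024, plus strand: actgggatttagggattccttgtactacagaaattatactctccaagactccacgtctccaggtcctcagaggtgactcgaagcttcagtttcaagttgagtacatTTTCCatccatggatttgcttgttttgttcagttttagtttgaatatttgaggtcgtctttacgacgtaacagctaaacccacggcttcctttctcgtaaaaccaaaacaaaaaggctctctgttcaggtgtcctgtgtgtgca
Tigit, chr16:43664185-43664434, minus strand: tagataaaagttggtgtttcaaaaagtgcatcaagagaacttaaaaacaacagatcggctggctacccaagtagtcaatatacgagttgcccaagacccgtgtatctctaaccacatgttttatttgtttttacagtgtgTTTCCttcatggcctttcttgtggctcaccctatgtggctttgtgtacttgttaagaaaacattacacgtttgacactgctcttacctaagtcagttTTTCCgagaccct
Cd160 near start, chr3:96814522-96814771, minus strand: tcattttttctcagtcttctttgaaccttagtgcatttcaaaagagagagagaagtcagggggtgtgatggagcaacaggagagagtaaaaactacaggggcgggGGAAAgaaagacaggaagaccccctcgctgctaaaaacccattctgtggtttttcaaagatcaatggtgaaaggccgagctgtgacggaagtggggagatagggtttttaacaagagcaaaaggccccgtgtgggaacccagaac
Cd160 far start, chr3:96829352-96829601, minus strand: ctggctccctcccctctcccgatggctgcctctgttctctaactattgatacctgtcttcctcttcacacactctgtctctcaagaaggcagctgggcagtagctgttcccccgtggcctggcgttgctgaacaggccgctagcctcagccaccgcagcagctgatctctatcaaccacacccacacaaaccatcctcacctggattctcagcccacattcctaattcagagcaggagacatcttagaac

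The GGAAA core was present in the windows of Pdcd1, Ctla4 and Tigit, with 2 matches each in Pdcd1 and Tigit and 1 in Ctla4, and in the window before the near start of Cd160 but not the far one. It stood in 5 of the 9 windows of the checkpoint genes and in 55.6% of the 32851 windows of all genes, so the share among these genes was close to that of all promoters. The AP-1 motif TGANTCA stood in 1 of the 9 windows, that of Havcr2, and in 6.75% of all windows. A match is a description of the letters and says nothing about binding.

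Pdcd1, which encodes PD-1, was listed at 0 in both unstimulated libraries. The control libraries stood at 14.2 and 17.4 FPKM, and the SMF libraries at 30.9 and 21.7 FPKM. Every stimulated library was above every unstimulated one, and the SMF libraries lay above the control libraries. The gene lies on chromosome 1 (GRCm38 94038305 to 94052553, minus strand), and all of its FPKM came from a transcript of 5 exons. Reads covered 5 of the 5 exons in 3 stimulated libraries and 4 in control replicate 1, whose uncovered exon was the shortest of the gene.

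Ctla4, which encodes CTLA-4, was listed at 0 and 1.99 FPKM in the unstimulated libraries. The control libraries read 109 and 48.4 FPKM and the SMF libraries 64.8 and 105 FPKM. It had the highest mean of the 9 genes in both stimulated groups, and the control libraries, which differed by a factor of 2.26, enclosed both values of SMF-treated cells. The gene lies on chromosome 1 with its main transcript at 60909025 to 60915832 on the plus strand. The last exon, 1220 of the 1933 bases of that transcript, held between 72.3% and 85.5% of the covered bases in the stimulated libraries, and held all of the 667 covered bases of unstimulated replicate 2. In SMF replicate 1 a second transcript of the gene (ENSMUST00000124816.1) received 14.0 FPKM, although only 1 of its 4 exons, the one overlapping the second exon of the main transcript, had any reads.

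Lag3, which encodes the MHC class II receptor LAG-3, was likewise listed at 0 in both unstimulated libraries. Control cells reached 18.3 and 19.9 FPKM and SMF-treated cells 14.5 and 19.6 FPKM. The stimulated groups overlapped, and the control replicates differed by a factor of only 1.09. The gene lies on chromosome 6 (124904361 to 124911705, minus strand), 16140 bases from Cd4, a gene of the same strand that stood at 0 to 4.68 FPKM. The neighbour on the other side, Ptms, 1976 bases away, was at 31.1 and 30.1 FPKM in unstimulated cells, 151 and 128 FPKM in control cells and 62.0 and 83.1 FPKM in SMF-treated cells. Reads covered 7 of the 8 Lag3 exons in control replicate 1 and 8 of 8 in the other stimulated libraries.

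Tigit, whose product shares a ligand with CD226, was listed at 0 in both unstimulated libraries. The control libraries stood at 9.24 and 25.1 FPKM and the SMF libraries at 38.6 and 31.2 FPKM. The SMF libraries were above the control libraries, which themselves differed by a factor of 2.71. The lower control value rested on 712 covered bases, against 4999 in control replicate 2 and 11019 and 7847 in the SMF libraries. The transcript (chromosome 16, 43648867 to 43664146, minus strand) has 919 bases. All 4 exons were covered in each stimulated library. In control cells 18.1% and 37.0% of the covered bases lay in the last exon, and in SMF-treated cells 66.9% and 58.4%.

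Havcr2, which encodes TIM-3, was listed at 0 in 4 of the 6 libraries. Control replicate 2 gave 1.19 FPKM from 704 covered bases and SMF replicate 1 gave 2.91 FPKM from 2463, of which 84.7% lay in the last exon. No group had both libraries above 0. The mean over the 6 libraries was under 1 FPKM, so Havcr2 was not among the genes tested, and at this depth no statement on its direction was possible.

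Btla, a receptor for HVEM, followed another course. It was present before stimulation at 18.7 and 16.1 FPKM, lower in control cells at 4.26 and 8.67 FPKM, and at 37.4 and 19.2 FPKM in SMF-treated cells. The control libraries lay below all 4 others, and the SMF libraries lay above both unstimulated ones. The gene is on chromosome 16 (45224315 to 45252892 for its main transcript, plus strand). In control replicate 1 all 1161 covered bases fell in the last exon, so none of the first 5 exons was covered there, while control replicate 2 and both SMF libraries had reads in all 6 exons. A shorter transcript (ENSMUST00000063654.5) was assigned 51.4% of the gene's FPKM in SMF replicate 1 and 14.3% in SMF replicate 2, but 0% in both control libraries and 0% and 5.50% in the unstimulated ones. It has 1598 bases against 3251 in the main transcript, and the same reads give a higher FPKM on a shorter transcript. The summed Btla FPKM therefore depends on this assignment, whose part in the differences between groups was not tested.

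Cd160, a second HVEM receptor, was found in all libraries. It stood at 8.59 and 16.7 FPKM in unstimulated cells, 15.5 and 28.8 FPKM in control cells and 29.6 and 31.4 FPKM in SMF-treated cells. The unstimulated and control groups overlapped, and the SMF libraries were above both, well above the unstimulated libraries but only just above control replicate 2. The gene lies on chromosome 3 (96798763 to 96829351, minus strand). Its annotated far first exon, which follows the second Cd160 window shown above, had no covered bases in any library. The near first exon, 52 bases long, had 227 covered bases in control replicate 2, counted over all reads. It had 185 and 349 in the SMF libraries, and 0 in the other 3 libraries.

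The distribution of reads along Cd160 also differed. The last exon makes up 70.3% of the exon length and held 100% and 86.1% of the covered bases in the unstimulated libraries and 85.4% in control replicate 1, against 45.6% in control replicate 2 and 31.2% and 46.4% in the SMF libraries. Unstimulated replicate 2 had 6479 covered bases in the last exon, above the 2875 to 5400 of the stimulated libraries. The transcript that starts at the near exon and ends early in the last exon (ENSMUST00000047702.7) took 89.2% of the gene's FPKM in control replicate 2 and 90.5% and 84.0% in the SMF libraries, and 0% in the other 3. An exon of Pdzk1 on the opposite strand overlaps Cd160 exons by 68 bases; Pdzk1 as a whole was at 26.6 to 53.4 FPKM, and the authors' run treated reads as stranded. These shares depend on how StringTie assigns reads between transcripts and were not tested. The transcript that ends early has 1121 bases, against 2590 in ENSMUST00000107074.7, which took 100% of the FPKM in those other 3 libraries. The same reads give a higher FPKM on a shorter transcript, so the summed Cd160 FPKM also depends on this assignment. Its part in the differences between groups was not tested. The 3 libraries without reads in the near exon had 67.4, 132 and 64.4 Mb of covered bases, and the 3 with such reads had 172, 259 and 227 Mb.

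**Figure D1:**
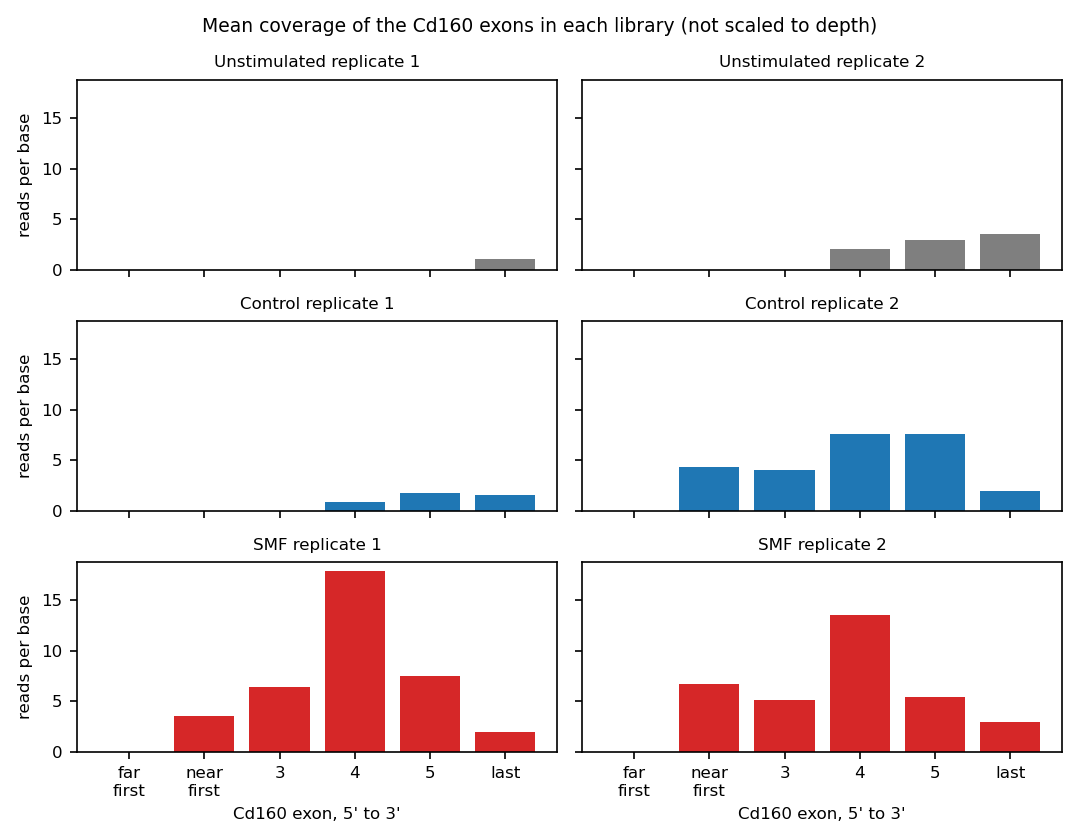
Mean coverage of the Cd160 exons (vertical axis, reads per base, not scaled to library depth) in order from 5′ to 3′ (horizontal axis), with a panel for each library. The far first exon is empty in all panels, and the near first exon is filled in control replicate 2 and both SMF libraries, the 3 deepest libraries.

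Entpd1 and Tox, the genes that are not receptors, were low throughout. Entpd1, encoding CD39, stood at 1.51 and 1.07 FPKM in unstimulated cells, 0.147 and 0.159 FPKM in control cells and 0 and 0.0936 FPKM in SMF-treated cells. Both unstimulated values were above all 4 stimulated values, on 52 to 788 covered bases in the 5 libraries above 0. Its mean was under 1 FPKM, so it was not tested in the main comparison. With every gene above 0 in at least 1 library admitted, 21980 genes, the difference on the log2(FPKM + 1) scale was -0.98 for control against unstimulated cells (limma adjusted p = 0.153), less than a 2-fold change and so no call, and -1.13 for SMF-treated against unstimulated cells (limma adjusted p = 0.0696), which met both thresholds. The B cell and myeloid markers were also lower in the stimulated libraries, and the part of such cells in the Entpd1 values was not tested.

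Tox was at 2.81 and 4.57 FPKM in unstimulated cells, 0 and 1.57 FPKM in control cells and 1.59 and 3.11 FPKM in SMF-treated cells. Control libraries were the lowest, and the unstimulated and SMF libraries overlapped. The gene spans chromosome 4 (6686353 to 6990799 for its main transcript, minus strand), where an exon of Gm11802 on the opposite strand overlaps its exons by 260 bases. Gm11802 as a whole was at 35.8 to 146 FPKM, well above Tox in every library.

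**Figure D2:**
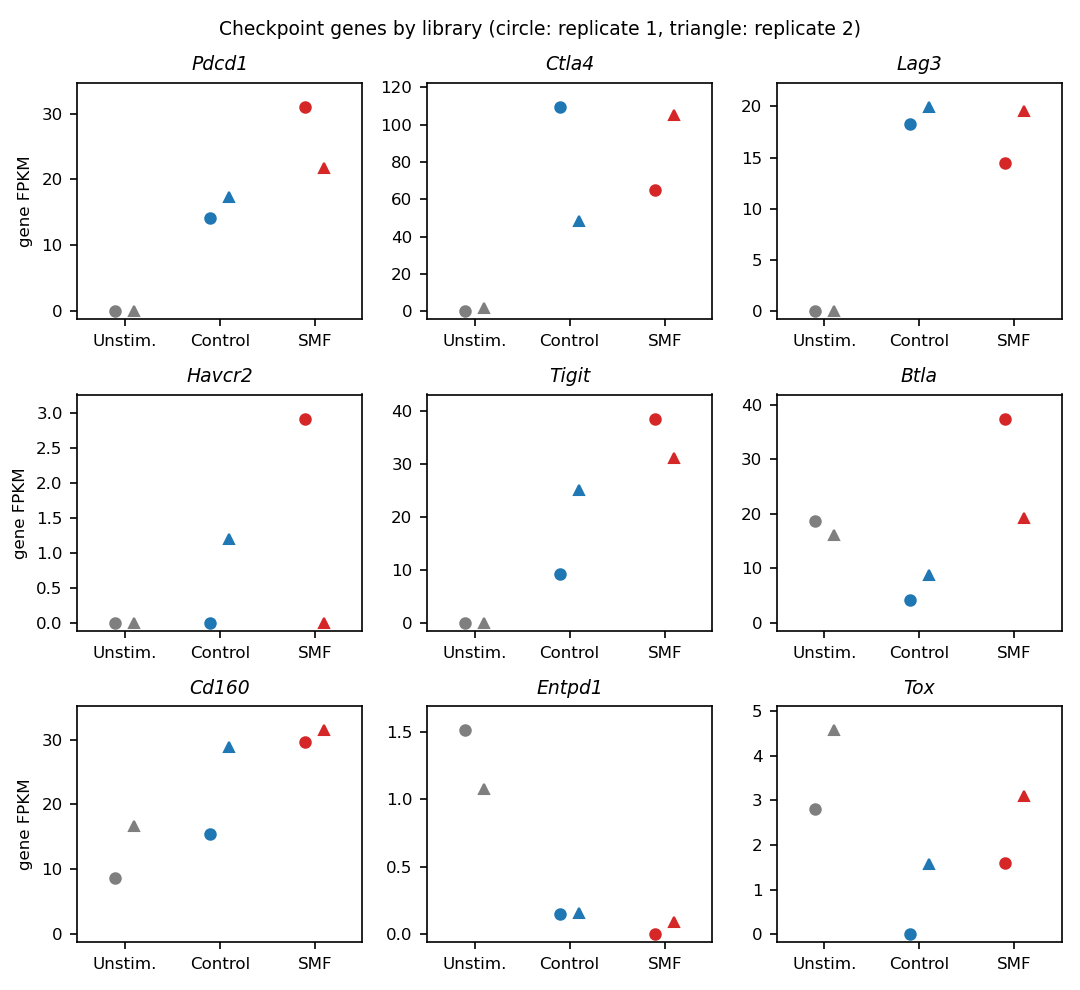
Gene FPKM (vertical axis, linear, scaled to each gene) of the 9 checkpoint genes by group (horizontal axis); circles are replicate 1 and triangles replicate 2. Pdcd1, Lag3 and Tigit are at 0 in both unstimulated libraries, Btla dips in control cells, and Havcr2, Entpd1 and Tox stay below 5 FPKM in all libraries.

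FPKM is scaled to the length of the transcript to which reads were assigned, and levels were ranked between genes with that limit. Btla, Cd160, Ctla4 and Tox had FPKM on transcripts of unlike length, so their places can depend on this assignment. In unstimulated cells Btla and Cd160 were the highest, and Btla at 16.1 to 18.7 FPKM overlapped Cd160 at 8.59 to 16.7 FPKM. Tox and then Entpd1 followed without overlap, and Ctla4 overlapped Entpd1. In control cells the order of the means was Ctla4, Cd160, Lag3, Tigit, Pdcd1, Btla, Tox, Havcr2 and Entpd1. Ctla4 stood apart from the rest, each of Cd160, Lag3, Tigit and Pdcd1 overlapped the next of these, Btla overlapped no other gene, and the low values of Tox, Havcr2 and Entpd1 overlapped. In SMF-treated cells the order was Ctla4, Tigit, Cd160, Btla, Pdcd1, Lag3, Tox, Havcr2 and Entpd1, with Ctla4 again apart. Tigit overlapped Cd160, Cd160 overlapped Btla, and Btla overlapped Pdcd1. Lag3 did not overlap Pdcd1 but overlapped Btla, and Tox overlapped Havcr2. Ctla4 was above at least 89.4% of the tested genes in every stimulated library, and Pdcd1 above 69.0% to 79.5% of them.

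Control cells were compared with unstimulated cells to ask how the checkpoint genes differed after stimulation without the field. The control cells had also spent 72 h in culture and the unstimulated cells were fresh, so stimulation and time in culture cannot be told apart. With limma on log2(FPKM + 1), 14991 genes averaging 1 FPKM or more were tested, and a gene was called when it changed 2-fold or more with an unadjusted p no greater than 0.05. Pdcd1, Ctla4, Lag3 and Tigit rose and Btla fell, so that 4 of the 7 genes tested were called higher and 1 lower, where 12.3% of all genes tested were called higher and 12.6% lower. The 4 higher genes also had an adjusted p under 0.05 (Benjamini-Hochberg over all genes), as did 4.52% of all genes in that direction. These 4 passed the filter on low values only through the stimulated libraries, so their count is a description and not support for a pattern. In whole cell populations, a larger share of expressing cells and more RNA per cell cannot be told apart.

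Since Pdcd1, Lag3 and Tigit were listed at 0 in unstimulated cells, no fold change is given for them. Their differences on the log2(FPKM + 1) scale, which depend on the added 1, were 4.06 ± 0.43 (SE; adjusted p = 0.00964) for Pdcd1, 4.33 ± 0.43 (adjusted p = 0.00863) for Lag3 and 4.03 ± 0.56 (adjusted p = 0.0156) for Tigit. Ctla4 differed by 5.42 ± 0.66 (limma adjusted p = 0.0133). It had the largest of these differences with the added 1, whereas with 0.1 added Lag3 was first at 7.58 and Ctla4 next at 7.32. Within the folder dates, the difference was 6.79 for the libraries of June 2017 and 4.05 for those of November 2017 in Ctla4, 3.92 and 4.20 in Pdcd1, 4.27 and 4.39 in Lag3, and 3.36 and 4.70 in Tigit, with 1 library per group in each. The direction was the same within both dates. For a gene at 0 in the unstimulated library of a date, any control value above 0 gives this direction. This held for Pdcd1, Lag3 and Tigit in both dates and for Ctla4 in June 2017, so the agreement adds no support. The 3 regulatory T cell markers summed to 23.1 and 9.01 FPKM in unstimulated cells and 14.2 to 22.9 FPKM in stimulated cells. Foxp3, the defining factor of regulatory T cells, a cell type that carries CTLA-4 and TIGIT at rest, was at 20.7 and 4.92 FPKM in the unstimulated libraries, where Ctla4 and Tigit were at or near 0, and at 11.8 to 19.3 FPKM in the stimulated ones; the part of these cells in the Ctla4 and Tigit values was not tested.

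Btla was lower in control than in unstimulated cells, with a difference of -1.37 ± 0.50 on the log2 scale (limma adjusted p = 0.145), and of -1.91 and -0.82 within the folder dates. The call was lost without unstimulated replicate 1 (-1.26), unstimulated replicate 2 (-1.47) or control replicate 1 (-0.93), and it did not survive adjustment. B cells also carry BTLA at rest, and the B cell markers fell over the same comparison, with 5 of 5 called lower; their part in the Btla value was not tested. Cd8a and Cd8b1 were called lower in this comparison as well. Cd160 differed by 0.77 on the log2 scale without a call, and Tox by -1.52 ± 0.70 (limma adjusted p = 0.229), also without a call. Tox passed both thresholds without the variance trend and, at -2.20, without control replicate 2.

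SMF-treated and unstimulated cells differed in stimulation, time in culture, field and folder date together, and this comparison shares the unstimulated libraries with the one above. Of the 7 genes tested 5 were called higher and 0 lower, against a background of 22.4% and 14.8%. At an unadjusted p under 0.05 in limma, the same number, 5, differed. The 4 genes with an adjusted p under 0.05, a call reached by 14.2% of all genes in that direction, were Ctla4 (5.6), Tigit (5.16), Pdcd1 (4.75) and Lag3 (4.16 on the log2 scale), with adjusted p from 0.0041 to 0.00571. As above, these 4 passed the filter on low values only through the stimulated libraries, so the counts are a description and not support for a pattern. The remaining gene was Cd160, higher by 1.27 ± 0.47 (limma adjusted p = 0.0968). Its call was lost without unstimulated replicate 1 (0.83), SMF replicate 1 (1.31) or SMF replicate 2 (1.23), without the variance trend (1.27) and when the libraries were shifted to a common median (1.02). The Cd160 FPKM also depends on how reads were assigned to its transcripts, and the part of this in the difference was not tested. Btla, at 0.60, and Tox, at -0.50, were not called.

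SMF-treated cells were compared with control cells to ask whether the field altered the checkpoint genes of stimulated cells. Btla was the only gene of the set called, with its higher values in SMF-treated cells, and none was called lower. This is 1 of 7 genes tested, against 12.5% of all genes tested called higher and 5.72% called lower. No gene of the set had an adjusted p under 0.05 in limma (0 of 7, with 1 at an unadjusted p under 0.05), where 3 genes, 0.02% of all tested, reached this in the higher direction. The SMF values exceeded all control values for 5 of the 7 genes, Pdcd1, Tigit, Btla, Cd160 and Tox, and this held for 37.4% of all genes tested. The median difference of the 7 genes was 0.69 on the log2 scale, beside 0.32 over all genes tested. Shifting the libraries to a common median removed most of that general difference and changed the share of all calls that were in the higher direction from 68.5% to 37.8%.

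Btla exceeded its control level in SMF-treated cells by 1.97 ± 0.50 on the log2 scale (limma adjusted p = 0.151), with a 95% interval from 0.76 to 3.17. After the shift to a common median it was 1.62 and still called. Without SMF replicate 1, which held the highest value, it was 1.502 and the call was lost; without any other library it stayed called. Cd8a, by 2.01, was also called higher in this comparison. The 4 differences between single SMF and control libraries ran from 1.06 to 2.87. In SMF replicate 1, 51.4% of the Btla FPKM was assigned to the shorter transcript, against 0% in both control libraries. The part of this assignment in the difference was not tested. The control value in replicate 1 rested on 1161 covered bases, all in the last exon, and without that library the difference was 1.52 and still called.

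Tigit and Tox differed by amounts near 2-fold that did not pass the test. The difference of Tigit was 1.13 ± 0.56 (limma adjusted p = 0.302, 95% interval from -0.22 to 2.48) and that of Tox 1.03 ± 0.70 (adjusted p = 0.43, from -0.66 to 2.72). Without control replicate 2 both were called, Tigit at 1.80 and Tox at 1.71, and without control replicate 1, the shallowest library, they were 0.45 and 0.35. The size of both differences therefore depended on which control library was used. The last exon of Tigit held 18.1% and 37.0% of the covered bases in control and 66.9% and 58.4% in SMF-treated cells. Exons 1 and 2 held 73 and 458 covered bases in control replicate 1 and 514 and 1814 in control replicate 2. They held 124 and 1765 in SMF replicate 1 and 79 and 1993 in SMF replicate 2, not scaled to depth. The part of this in the Tigit difference was not tested.

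Pdcd1 differed by 0.69 ± 0.43 (limma adjusted p = 0.401, 95% interval from -0.36 to 1.74), and by 0.35 after the shift to a common median. Cd160 differed by 0.50 (interval from -0.63 to 1.64), Ctla4 by 0.18 (interval from -1.43 to 1.79) and Lag3 by -0.17 (interval from -1.21 to 0.87). The directions of Ctla4 and Lag3 were not stable, since Ctla4 became -0.16 under the common median and Lag3 0.035 without SMF replicate 1. For Pdcd1, Ctla4, Lag3, Tigit, Cd160 and Tox the intervals include 0 and, in the upward direction, changes of nearly 2-fold or more, so these libraries do not show that the genes were alike in the 2 groups.

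**Figure D3:**
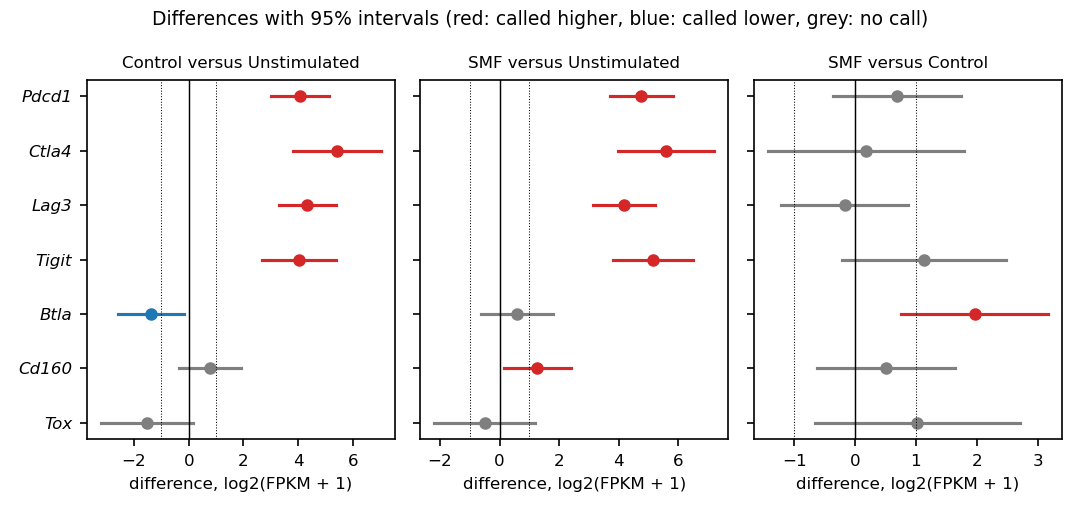
Differences on the log2(FPKM + 1) scale (horizontal axis) with 95% intervals for the 7 checkpoint genes tested (vertical axis), by comparison; the ranges of the horizontal axes differ, dotted lines mark a 2-fold change, red marks genes called higher and blue genes called lower. Pdcd1, Ctla4, Lag3 and Tigit lie far to the right in both comparisons with unstimulated cells, and in SMF against control only Btla is called.

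The ligands and counterparts of these receptors were given from lists by symbol. Of all genes tested, 12.3% were called higher and 12.6% lower in control against unstimulated cells. The shares were 22.4% and 14.8% in SMF-treated against unstimulated cells, and 12.5% and 5.72% in SMF-treated against control cells. The medians over all genes were -0.046, 0.27 and 0.32 in the same order. The counts of each list are a description to be read beside these shares. Of 17 ligands 12 were tested. In control against unstimulated cells 1 was called higher and 4 lower, with a median difference of -0.06 beside -0.046 over all genes. The 4 called lower were Cd86 and the MHC class II genes H2-Aa, from 71.3 and 79.8 FPKM to 2.85 and 2.84 FPKM (-4.31 ± 0.42, limma adjusted p = 0.00811), H2-Eb1 (-3.46, adjusted p = 0.0557) and H2-Ab1 (-1.77, adjusted p = 0.139). These 3 MHC genes, whose products bind LAG-3, are typical of B cells and myeloid cells, and the markers of both fell over the same comparison; their part was not tested. Cd86, a ligand of CTLA-4, was at 3.18 and 6.14 FPKM in unstimulated cells and listed at 0 in all 4 stimulated libraries (-2.45 ± 0.63, limma adjusted p = 0.0674). It passed the filter on low values only through the unstimulated libraries, so its call is a description and not support. H2-Aa kept its call under every alternative and Cd86 under the 14 that tested it, all but the filter at a mean of 5 FPKM, and H2-Eb1 and H2-Ab1 lost theirs under several.

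In SMF-treated against control cells 2 ligands were called higher and 2 lower. Pdcd1lg2, which encodes the PD-1 ligand PD-L2, was at 15.0 and 11.1 FPKM in SMF-treated cells, 0 and 4.01 FPKM in control cells and 0 in both unstimulated libraries (2.64 ± 0.84 against control, adjusted p = 0.182 in limma). Cd80, which binds both CD28 and CTLA-4, was at 16.1 and 32.5 FPKM in SMF-treated cells, 7.67 and 6.74 FPKM in control cells and 4.01 and 4.85 FPKM in unstimulated cells (1.55 ± 0.47, limma adjusted p = 0.174). The call of Pdcd1lg2 was lost when either SMF or either unstimulated library was left out, with the pseudocount of 0.1 and with only the groups compared in the fit, and that of Cd80 without SMF replicate 2 or either control library. H2-Ab1 (-2.53) and H2-Aa (-1.94 on the log2(FPKM + 1) scale, listed at 0 in both SMF libraries) were lower, with limma adjusted p of 0.15 and 0.14, and H2-Ab1 lost its call without control replicate 1 or SMF replicate 1; the summed B cell markers were also lower in the SMF libraries. In SMF-treated against unstimulated cells 4 ligands were called higher and 4 lower.

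Of 8 activating counterparts and partners, 6 were tested. Cd28, which shares its ligands with CTLA-4, was at 11.7 and 13.4 FPKM in unstimulated, 49.0 and 41.1 FPKM in control and 85 and 69.4 FPKM in SMF-treated cells. It was called higher in control than in unstimulated cells (1.76 ± 0.30, adjusted p = 0.0246). Cd226, which competes with TIGIT, was at 21.3 and 17.4 FPKM in unstimulated, 3.64 and 7.87 FPKM in control and 26.7 and 24.4 FPKM in SMF-treated cells. It was called lower in control than in unstimulated cells (-1.66 ± 0.44, limma adjusted p = 0.0703), a call lost without unstimulated replicate 1. Icos, a relative of CD28, was at 8.40 and 10.3 FPKM, 9.58 and 11.9 FPKM, and 36.8 and 48.3 FPKM in the same order of groups.

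In SMF-treated against control cells Cd226 (2.05 ± 0.44, adjusted p = 0.14 in limma) and Icos (1.88 ± 0.36, adjusted p = 0.136) were called higher and no gene of the list lower, with a median of 0.97 over the 6 genes. Both calls were kept under every alternative, and neither passed adjustment. Cd226 thus took a course like that of Btla, low in control cells, while Tigit was at 0 in the unstimulated libraries, in which Cd226 was present. In SMF-treated against unstimulated cells 3 genes of this list were called higher and 1 lower.

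**Figure D4:**
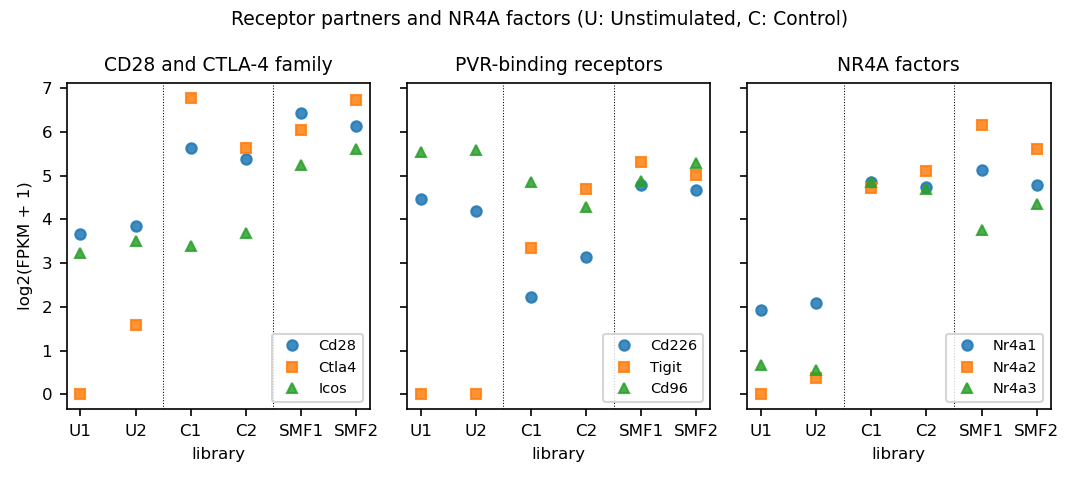
Levels as log2(FPKM + 1) (vertical axis) in each library (horizontal axis; U, unstimulated; C, control) of Ctla4 with Cd28 and Icos, of Tigit with Cd226 and Cd96, and of the 3 NR4A factors; Cd96, a further receptor for the poliovirus receptor, was added after its values were seen. Cd28 is present before stimulation when Ctla4 is near 0, Cd226 dips in control cells, and all 3 NR4A factors are above their unstimulated values in the 4 stimulated libraries.

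The adenosine list, which holds the enzymes and receptors downstream of CD39, had 4 of its 6 genes tested. Adora2a, the adenosine receptor of T cells, was called higher in control than in unstimulated cells, at 10.4 and 13.8 against 5.73 and 4.01 FPKM (1.16 ± 0.42, adjusted p = 0.146 in limma), a call lost under 8 of 15 alternatives. None was called lower, and the median was 0.06. In SMF-treated against control cells and against unstimulated cells 0 of the 4 were called by limma, and 0 had an unadjusted p under 0.05. The medians were 1.13 and 0.89, beside 0.32 and 0.27 over all genes.

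Of 13 genes for proteins that act next to the receptors in the cell, 12 were tested. Ap1m1 and Fyn were called lower in control than in unstimulated cells and then called higher in the comparison of SMF-treated with control cells. Ap1m1, a subunit of the AP-1 clathrin adaptor, was at 17.8 and 22.8 FPKM in unstimulated, 3.52 and 9.36 FPKM in control and 31.2 and 33.3 FPKM in SMF-treated cells. Fyn, a Src family kinase, was at 74.6 and 48.7 FPKM, 21.3 and 25.6 FPKM, and 83.7 and 62.5 FPKM in the same groups (1.59 ± 0.34 in SMF against control, adjusted p = 0.14 in limma). Fyn kept both calls under every alternative, and Ap1m1 lost that of control against unstimulated cells when either unstimulated library was left out. Ap2m1, the subunit of the AP-2 adaptor that binds CTLA-4, was called higher in control than in unstimulated cells (1.11 ± 0.40, limma adjusted p = 0.144), a call lost under several alternatives. The counts were 1 higher and 2 lower for control against unstimulated cells, 2 higher and 0 lower for SMF against control, and 1 higher and 0 lower for SMF against unstimulated cells, with medians of -0.33, 0.77 and 0.38. Over all genes the medians were -0.046, 0.32 and 0.27 in that order.

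Of 15 other inhibitory or late activation receptors 9 were tested, and in control against unstimulated cells 4 were called higher and 3 lower, with a median of 0.92. Tnfrsf9, which encodes the costimulatory receptor 4-1BB and marks activated cells, was at 0 and 1.90 FPKM in unstimulated cells and at 158 and 156 FPKM in control cells (6.53 ± 0.52, adjusted p = 0.00707 in limma). Klrc1, encoding the inhibitory receptor NKG2A, went from 0 and 1.5 FPKM to 20.3 and 51.6 FPKM (4.41 ± 0.65, adjusted p = 0.0182). Vsir, encoding VISTA, was at 22.6 and 18.8 against 58.8 and 63.8 FPKM (1.52, adjusted p = 0.0452), and Cd38, an ectoenzyme also found on B cells, at 40.04 and 22.2 against 5.30 and 8.22 FPKM (-2.02, adjusted p = 0.095). The first 3 kept their calls under every alternative, and Cd38 lost its call without unstimulated replicate 1 or control replicate 1 and with the pseudocount of 0.1. Tnfrsf9 and Klrc1 passed the filter on low values only through the stimulated libraries, so their calls are a description and not support.

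In SMF-treated against control cells 1 gene of that list was called higher and 1 lower, with a median of 0.23. Cd5, a brake on T cell receptor signalling, was at 14.0 and 18.6 FPKM in unstimulated, 31.5 and 39.8 FPKM in control and 159 and 115 FPKM in SMF-treated cells (1.91 ± 0.33 against control, adjusted p = 0.136 in limma). Cd38 was lower, at 1.64 and 0.126 FPKM in the SMF libraries (-2.14 ± 0.61, adjusted p = 0.167). In SMF-treated against unstimulated cells 3 genes were called higher and 2 lower. The call of Cd5 was kept under every alternative and that of Cd38 was lost without control replicate 2 or SMF replicate 2.

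Of 19 transcription factors linked with these receptors 17 were tested. In control against unstimulated cells 5 were called higher and 1 lower, with a median of 0.05. The NR4A factors, nuclear receptors induced by T cell receptor signals, rose together. Nr4a2 went from 0 and 0.293 FPKM to 25.6 and 33.8 FPKM (4.74 ± 0.41, adjusted p = 0.00707 in limma), Nr4a3 from 0.593 and 0.460 to 28.2 and 25.0 FPKM (4.18 ± 0.43), and Nr4a1 from 2.83 and 3.25 to 28.1 and 25.9 FPKM (2.80 ± 0.35). Irf4, whose level follows the strength of the T cell receptor signal, went from 3.79 and 3.12 to 38.2 and 39.3 FPKM (3.16 ± 0.31, adjusted p = 0.008). All 4 kept their calls under every alternative. Nr4a2 and Nr4a3 passed the filter on low values only through the stimulated libraries, so their calls are a description and not support.

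In SMF-treated against control cells Batf, a partner of IRF4, was called higher, at 20.3 and 16.7 against 4.46 and 7.98 FPKM (1.47 ± 0.42, adjusted p = 0.168 in limma). Bcl6 was called lower, at 0.368 and 0 against 2.75 and 1.93 FPKM (-1.50 ± 0.58, limma adjusted p = 0.224), and with the replicate block it was not called. The median over the list was 0.11. Batf lost its call without SMF replicate 1, and Bcl6 without control replicate 1, SMF replicate 1 or SMF replicate 2. In SMF-treated against unstimulated cells 4 factors were called higher and 5 lower.

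Likeness to the checkpoint genes was described by Pearson's r of log2(FPKM + 1) over the 6 libraries, among 8041 genes averaging 5 FPKM or more, with a transcript of several exons. The libraries share groups and folder dates, so these values describe 6 points and carry no test. Pdcd1 was most like Kif2c, a motor of the mitotic spindle (r = 0.999), which was at 0 in both unstimulated libraries, 11.7 and 13 FPKM in control and 26.0 and 18.3 FPKM in SMF-treated cells, and like Nr4a2 (r = 0.999). Tigit was most like Spag5 and Mrpl39, Ctla4 like Gfi1 and Cdca7l, and Lag3 like Bcl7c and Exosc9, with r from 0.9977 to 0.9999. Btla was most like Top2b, a DNA topoisomerase (r = 0.996), at 23.2 and 23.1 FPKM in unstimulated, 8.83 and 13.1 FPKM in control and 37.8 and 23.5 FPKM in SMF-treated cells, and like Cop1 (r = 0.990). Cd160 was most like Cep57 and Calm3 and Tox like Ap4s1 and Uckl1.

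Among the checkpoint genes themselves, Pdcd1, Ctla4, Lag3 and Tigit had r of 0.919 to 0.988 with each other over the 6 libraries. Btla had r of -0.243 to 0.049 with these 4 and 0.649 with Tox. With unstimulated libraries at or near 0 for these 4, their r mainly describes the step between unstimulated and stimulated cells. Cd200, the nearest gene to Btla on its right side at 124465 bases, was at 1.29 and 1.82 FPKM in unstimulated, 17.8 and 14.4 FPKM in control and 58.5 and 28.4 FPKM in SMF-treated cells, and so did not share the dip of Btla in control cells.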

How the data were processed

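RNA of mouse CD8+ T cells was measured in 6 libraries, 2 per group, with groups and replicate numbers from the labels. Libraries were made with a stranded total RNA kit. The submitters' processing notes list Trimmomatic 0.36, HISAT2 and StringTie, and per the file headers StringTie 1.3.5 was run by the authors on GRCm38 with the GENCODE M19 annotation, limited to annotated transcripts. The deposited files give for each of 137767 transcripts the FPKM, the TPM and the coverage (mean reads per base, not normalized). A further deposited table of gene values has 3 value columns that match no sample; they were not used. No read counts were used here, and coverage times length served as depth.

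Gene FPKM was summed over transcripts. Genes averaging 1 FPKM or more, 14991 of 54446, were fitted with limma 3.58.1 (R 4.3.3) on log2(FPKM + 1) over all 3 groups, with the variance trend and 3 residual degrees of freedom from the libraries. Fold changes on this scale understate those of low genes. A call needs a change of 2-fold or more together with an unadjusted p no greater than 0.05, the thresholds in the study's methods; adjusted p values are Benjamini-Hochberg over all genes tested. On simulated data for control against unstimulated cells over 14991 genes, 83% of 200 changed genes (4- or 8-fold) and 4.73% of unchanged genes were called. The checkpoint genes and all lists were chosen with earlier results of these data known. All checkpoint genes are named; of other lists, up to 4 called genes with the largest difference per comparison of control with unstimulated and of SMF with control, and 2 alike genes per tested checkpoint gene. Alternatives covered the pseudocount, the filter, scalings, TPM, the variance model, the groups fitted, a replicate block and leaving out each library. Promoter windows came from RefSeq on GRCm38.p6; the files' annotation is on GRCm38. One B cell marker and one activation gene are not reported here and were left out of the sums and counts. Tables were handled in Python 3.11.15 with pandas 2.3.3.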

Additional observations from a re-analysis of the deposited data

How the results depend on the processing

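The numbers of checkpoint genes called, 5 for control against unstimulated, 5 for SMF against unstimulated and 1 for SMF against control, stayed within 1.5 times under 43 of 45 combinations of comparison and alternative; in SMF against control, leaving out 1 library gave 0 to 3, with 0 without SMF replicate 1 and 3 without control replicate 2. The direction turned for 2 genes in SMF against control, neither of them called: Ctla4 was -0.16 with the libraries shifted to one median, -0.40 without control replicate 2 and -0.17 without SMF replicate 2, and Lag3 was 0.035 without SMF replicate 1; leaving out 1 library gave -0.40 to 0.76 for Ctla4 and -0.37 to 0.035 for Lag3. The cause was not tested. In refits of the genes named from the other lists, the call was kept 400 times and lost 48 times, and the direction changed 0 times. Over all genes, SMF against control gave 1868 higher and 857 lower calls, 877 and 1441 with the libraries shifted to one median, 841 and 526 without SMF replicate 1, 964 and 673 without SMF replicate 2 and 1123 and 645 without control replicate 1. Replicate numbers are shared between groups; differences between replicates 1 and 2 correlated across 14991 genes at r = 0.096 for unstimulated with control, 0.030 for unstimulated with SMF and 0.021 for control with SMF. With the replicate block the checkpoint counts were 5, 5 and 1, and no call of a checkpoint gene changed; the numbers coincide with folder dates for unstimulated and control cells only. Of the other genes named, the block ended the calls of Adora2a in control against unstimulated and Bcl6 in SMF against control. Having 2 libraries per group and the depth of control replicate 1 limit all statements on SMF against control, and Havcr2 and Entpd1 were below the filter on low values.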
